A study of Mus musculus with 6 samples.

Results

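Extracellular metalloproteinase genes and their inhibitors were followed in ureteric bud cells that had lost the histone methyltransferase subunit ASH2L. The set holds every gene of the count table named as a matrix metalloproteinase (MMP), an ADAM, an ADAMTS, an ADAMTS-like protein or a tissue inhibitor of metalloproteinases (TIMP). These are 65 of 17189 genes, namely 19 Mmp, 19 Adam, 19 Adamts, 4 Adamtsl and 4 Timp genes, taken by their names. RNA was sequenced from mouse UB lineage cells, the epithelium that branches into the collecting ducts, sorted by fluorescence at E16.5. The 3 control libraries were Hoxb7Cre-GFP+,Ash2l F/+ and so had 1 floxed allele, and the 3 cKO (conditional knockout) libraries were Hoxb7Cre-GFP+,Ash2l F/F. Both genotypes thus carried the transgene, in which the duct promoter Hoxb7 drives Cre, and no treatment is labelled. The labels call each library a biological replicate, but whether a library is 1 embryo or a pool is not given. Every p-value thus reflects only how these libraries vary, which need not be how single embryos vary.

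MMPs cut collagens and other matrix proteins, and most are secreted as inactive precursors. A subgroup, the membrane-type MMPs, stays at the cell surface, and MMP14 among them activates the secreted gelatinase MMP2 with TIMP2 as a bridge. ADAMs release growth factors and receptors from the plasma membrane, whereas ADAMTS enzymes act in the matrix on proteoglycans and procollagens. ADAMTS-like proteins resemble ADAMTS enzymes but lack the protease domain, and TIMPs block the active sites of MMPs and, for TIMP3 in particular, of ADAM17 and several ADAMTS enzymes. In branching organs these proteases remodel the basement membrane ahead of the growing tip. ASH2L belongs to the enzyme complexes that place methyl groups on lysine 4 of histone H3 at active promoters.

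Library totals ran from 9620235 to 10538314 counts. The targeted gene, Ash2l, fell from 175 ± 15.6 to 32.4 ± 12.6 CPM (counts scaled to a common library size, SD, n = 3), in every cKO library below every control (edgeR adjusted p = 0.00786, and 2e-06 without cKO replicate 3). One library, cKO replicate 3, stood apart: of 11738 genes counted more than 10 times in all 5 other libraries, 1453 had 0 counts there, and at most 3 genes did so in any other library. Among the protease and inhibitor genes, 7 of 27 met that condition (25.9%, against 12.4% of all genes): Adam9, Adam22, Adam33, Adamts20, Mmp16, Mmp17 and Mmp24. In the same library 8 members had at least 30 counts and more than 2 times those of any other library. They were Adam8, Adam19, Adamts4, Adamts7, Adamts17, Adamtsl1, Adamtsl4 and Adamtsl5. How many of all genes did so was not counted, so these 8 are not read as a trait of the family. Calls are therefore given from 2 fits, with all 6 libraries and without cKO replicate 3, where cKO is represented by 2 libraries.

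The ureteric label was checked with 12 epithelial marker genes, all of which were present. Their summed level was 10760 to 12059 CPM in controls and 6389 to 7364 CPM in cKO. Of the 12, 5 fell, beside 3.59% of all genes tested (7 without cKO replicate 3, beside 14.9%). Of 11 stromal markers only 7 were tested with 6 libraries, and none was called in either fit. The 11 summed to 13.7 to 33.6 CPM in controls and 2.19 to 30.5 CPM in cKO, and 10 of them were at 0 in cKO replicate 3. Of 5 smooth muscle markers, only Acta2, Tagln and Cnn1 were tested with 6 libraries. These 3 rose in both fits, beside 3.52% of all genes tested with 6 libraries and 13.7% without cKO replicate 3. The 5 summed to 4.4 to 10.7 CPM in controls and 105 to 204 CPM in cKO. The smooth muscle myosin gene Myh11 had at most 0.571 CPM in controls and 0.613 and 0 CPM in cKO replicates 1 and 2, with 13.9 CPM in cKO replicate 3, and Des was at most 1.12 CPM anywhere. The 7 leukocyte markers summed to 43 to 80.3 CPM in controls and 41.4 to 72 CPM in cKO, most of it from Ptprc. Only 5 were tested with 6 libraries, and none was called in either fit. The 6 endothelial markers summed to 0.785 to 4.19 CPM in controls and 5.21 to 11.3 CPM in cKO. Only 1 of the 6, Kdr, was tested with 6 libraries and it was not called, while Tek rose without cKO replicate 3. Cldn5, too low to test with 6 libraries, had 0, 1 and 0 counts in controls, against 5, 14 and 113 in cKO. Cap mesenchyme markers summed to 8.66 to 13 CPM in controls and 18.4 to 19.6 CPM in cKO, nephron and podocyte markers to 8.9 to 11.4 and 28.8 to 38.3 CPM, and erythroid markers to 0.491 to 378 and 0 to 32.5 CPM. With 6 libraries 3 cap mesenchyme, 3 nephron and podocyte and 2 erythroid markers were tested, and none was called. Cited1 of the cap mesenchyme and Lrp2 and Slc34a1 of the nephron rose without cKO replicate 3 (edgeR adjusted p = 0.0123, 0.00783 and 0.00261). The part of other cell types in the protease results was not tested. In bulk RNA, fewer cells of a type and less RNA per cell cannot be told apart.

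With all 6 libraries, 35 of the 65 members passed the filter on low counts and 1 of them was called at an adjusted p under 0.05. That gene, Mmp14, fell, and none rose. The share of 2.86% stands beside 7.11% of the 13047 genes tested (3.52% rose and 3.59% fell). Without adjustment, 9 members had p under 0.05, 8 of them higher in cKO, beside 23.1% of all genes (11.9% higher and 11.1% lower). The same libraries gave 6 rises and 1 fall among members with DESeq2, where 15.7% of all genes were called (7.89% rose and 7.82% fell). Without cKO replicate 3, 12 members rose and 6 fell among 39 tested, a share of 46.2% beside 28.5% of all 13660 genes tested there (13.7% rose and 14.9% fell). All 18 were called in no other test that left out 1 library, and 12 of them were also called with limma-voom weights that lower the influence of deviant libraries, where 25.8% of all genes were called (12.3% rose and 13.5% fell). For 3 of the 18 (Mmp3, Mmp23 and Timp1) the mean of 1 group was under the 0.965 CPM of the filter. These 3 were thus tested only through the group in which they were high. In the fit without cKO replicate 3, the Y-linked genes given with Timp1 below had reads in every control and in no cKO library. The part of this difference in the calls was not tested and cannot be told apart from that of genotype. Values of cKO and control libraries did not overlap for 15 of 35 members (42.9%), beside 37.4% of all genes (16.7% with cKO above and 20.7% with cKO below). Without cKO replicate 3 this held for 23 of 39 members (59%), beside 55.6% of all genes (29.1% above and 26.5% below). The median log2 fold change of the tested members was 0.54 with 6 libraries, beside -0.04 for all genes tested. It was 0.45 without cKO replicate 3, beside 0.01. These medians and the counts without overlap include members tested only through 1 group. There were 2 through cKO and 1 through controls with 6 libraries, and 5 and 2 without cKO replicate 3.

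**Figure D1:**
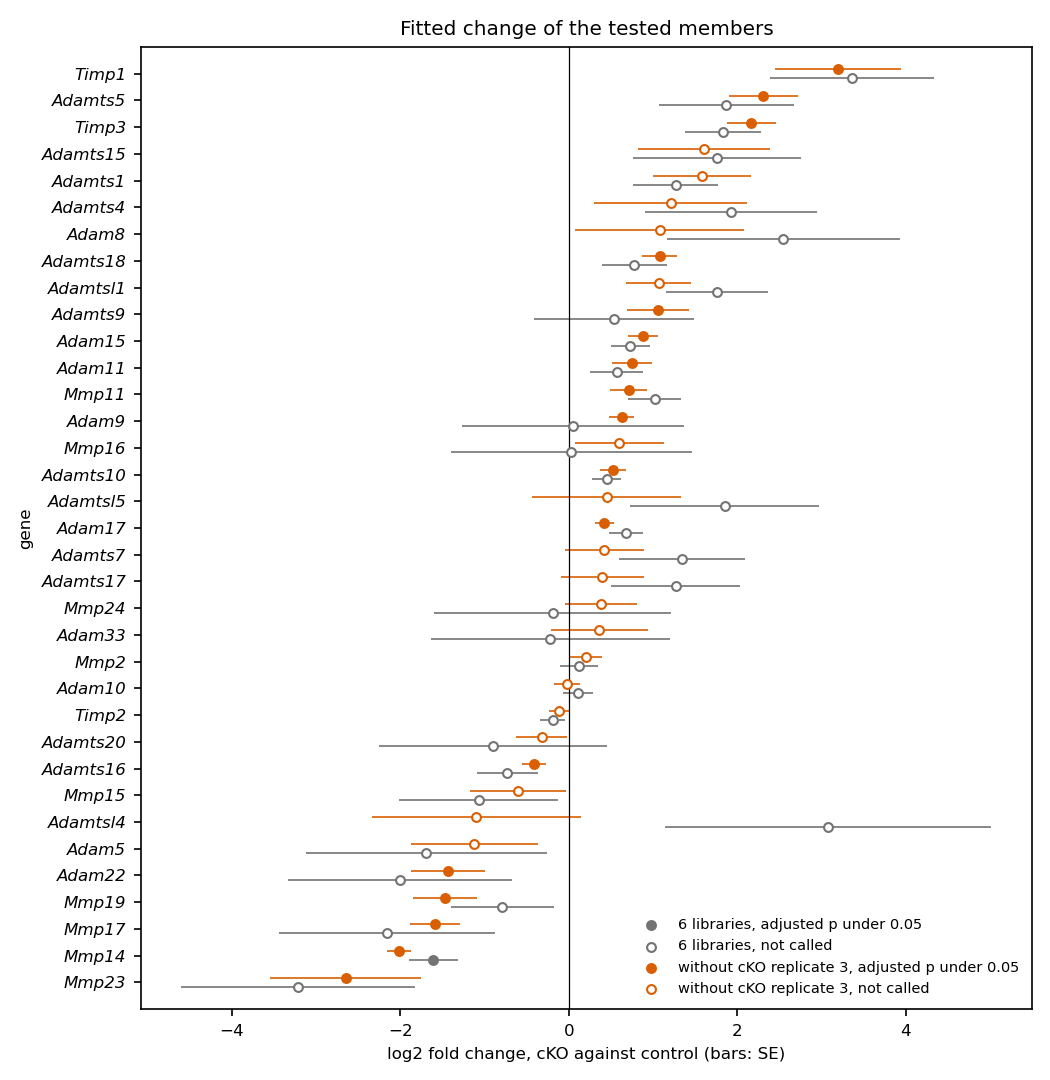
Log2 fold change of cKO against control (x axis) for the 35 tested members (y axis), fitted with 6 libraries (grey) and without cKO replicate 3 (orange). Bars are standard errors and filled points have an adjusted p under 0.05: Mmp14 alone is filled in grey, while Adamtsl4, Adam10, Mmp24 and Adam33 lie on opposite sides of 0 in the 2 fits.

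In control cells a few members made up most of the protease RNA. Per gene length, Mmp14 was the highest of all members at 94.9 ± 9.67 FPKM (fragments scaled by gene length and library size, SD, n = 3). Timp2 followed at 66.8 ± 9.76 FPKM, a gap wider than the spread of either. Adam17 (31.1 ± 3.06 FPKM) and Adamts1 (29.7 ± 14.4 FPKM) came next and did not differ beyond their spread. The following 5, Mmp11, Timp3, Mmp2, Adam10 and Adam9, lay between 12.8 and 15.5 FPKM and were not separable by their replicates. Ranks 10 to 12 were Adam15 at 8.85 ± 0.653, Adamts10 at 8.41 ± 0.612 and Adamts16 at 7.94 ± 0.388 FPKM. Many MMPs studied in inflamed tissue were at or near 0: Mmp7, Mmp8, Mmp9, Mmp10 and Mmp13 had no count in any control library.

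Mmp14 (Entrez Gene 17387), the membrane-anchored collagenase, lost most of its RNA in cKO cells. Control replicates 1, 2 and 3 had 326, 371 and 403 CPM, and cKO replicates 1, 2 and 3 had 104, 78.8 and 177 CPM. All cKO libraries were below all controls, and cKO replicate 3 was the highest of the cKO libraries. The mean fell from 366 ± 38.7 to 120 ± 50.9 CPM (SD, n = 3), a log2 fold change of -1.61 (SE 0.292, edgeR adjusted p = 0.0259). Without cKO replicate 3 the change was -2.02 (SE 0.141, adjusted p = 6.55e-07). The call was lost without any other single library: adjusted p was 0.0916, 0.102 and 0.115 without control replicate 1, 2 or 3, and 0.0928 and 0.0678 without cKO replicate 1 or 2. The size of the change in those 5 tests was between -1.39 and -1.70.

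The other membrane-type MMP genes were lower in level and did not move as one. Mmp17, which encodes a protease tethered by a lipid anchor, had 21, 18.2 and 19.2 CPM in controls and 5.31, 7.72 and 0 CPM in cKO. Every cKO library was below every control, but the 0 in cKO replicate 3 widened the error and the adjusted p was 0.382 (log2 fold change -2.16, SE 1.28). Without that library Mmp17 fell (-1.59, SE 0.293, adjusted p = 0.00129). Mmp15 was 3.85 ± 0.642 CPM in controls, against 1.83 ± 1.31 CPM in cKO and was called in neither fit (adjusted p = 0.579 and 0.472). Mmp16 and Mmp24 each had 0 counts in cKO replicate 3. In cKO replicates 1 and 2, Mmp16 had 6.03 and 3.45 CPM against 2.65 to 3.52 CPM in controls, and Mmp24 had 7.97 and 4.67 CPM against 4.38 to 5.38 CPM. Both ranges overlapped those of controls, and neither gene was called in either fit.

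Of the gelatinase genes, Mmp2, whose product MMP14 activates, did not differ beyond the spread of its replicates. Controls had 44.9, 42.7 and 55 CPM and cKO libraries 43.6, 66.1 and 45.5 CPM, with a log2 fold change of 0.12 (SE 0.224, adjusted p = 0.805) and of 0.20 (adjusted p = 0.494) without cKO replicate 3. An adjusted p of this size does not show that Mmp2 was the same in both groups. Mmp9 had no count in controls and 1, 7 and 0 counts in cKO replicates 1, 2 and 3, too few to test.

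Mmp11 encodes a stromelysin activated inside the cell by furin. It had 46.6, 34.4 and 27.2 CPM in controls and 50.6, 67.9 and 100 CPM in cKO. The groups did not overlap, although cKO replicate 1 lay close to control replicate 1. The change of 1.02 (SE 0.316) had an adjusted p of 0.112 with 6 libraries, and Mmp11 rose without cKO replicate 3 (0.71, SE 0.22, adjusted p = 0.028).

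Mmp19 and Mmp23, MMPs outside these classes, were lower in cKO replicates 1 and 2. Mmp19 had 9.23, 11 and 12.1 CPM in controls, 4.7 and 3.15 CPM in these cKO libraries and 10.9 CPM in cKO replicate 3. That last value lies within the control range, so the groups overlapped (adjusted p = 0.518), and Mmp19 fell without it (-1.47, SE 0.375, adjusted p = 0.0101). Mmp23 had 14, 28 and 58 counts in controls, against 4, 6 and 0 counts in cKO, with no overlap. Its adjusted p was 0.23 with 6 libraries and 0.0411 without cKO replicate 3 (-2.65, SE 0.898). Mmp23 passed the filter only through the controls, so this fall is given as a description.

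**Figure D2:**
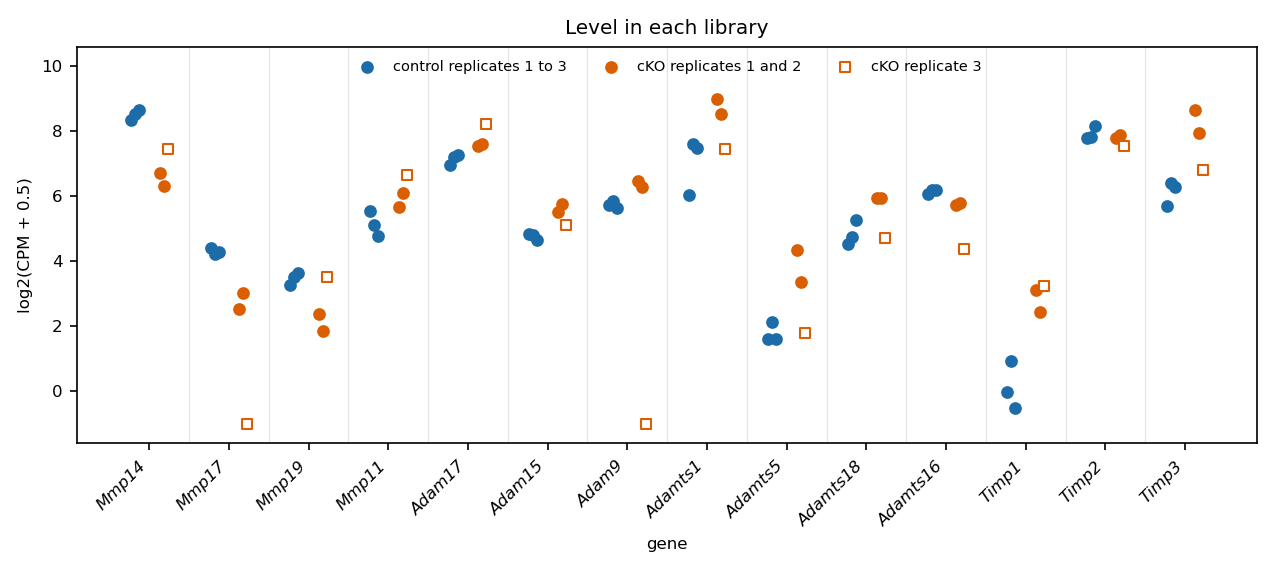
Level of 14 members in each library as log2(CPM + 0.5) (y axis), with controls in blue, cKO replicates 1 and 2 in orange and cKO replicate 3 as open squares. For Mmp14 all cKO libraries sit below the controls and for Timp1 and Timp3 all sit above them, while Mmp17 and Adam9 are at 0 counts in cKO replicate 3.

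A further group of MMP genes was nearly silent in controls and had low counts in 2 of the 3 cKO libraries. In the RefSeq annotation, 10 protein-coding genes, all MMPs, follow each other without another protein-coding gene on chromosome 9, and 7 of them were counted here: Mmp13, Mmp3, Mmp1a, Mmp10, Mmp8, Mmp20 and Mmp7. The other 3, Mmp12, Mmp1b and Mmp27, were not in the count table, and only their promoters are used below. The group covers collagenases (Mmp1a, Mmp8 and Mmp13), stromelysins (Mmp3 and Mmp10), the matrilysin Mmp7 and the enamel protease gene Mmp20. It was picked out after its values were seen, and its levels are a description.

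Summed over the 7 genes, control replicates 1, 2 and 3 had 3, 0 and 1 counts, and cKO replicates 1, 2 and 3 had 47, 64 and 0. Of the 7, 6 had no count in any control. In cKO replicate 1 all 7 had counts, and in cKO replicate 2 all but Mmp13 did. In cKO replicates 1 and 2, Mmp3 had 15 and 18 counts, Mmp10 had 2 and 22, Mmp1a had 11 and 8, Mmp7 had 5 and 8, Mmp20 had 2 and 5, Mmp8 had 2 and 3, and Mmp13 had 10 and 0. The highest value per length among them was 1.32 FPKM, for Mmp10 in cKO replicate 2, far under the 94.9 FPKM of Mmp14 in controls. A count of 0 allows up to 3 counts, or 0.285 to 0.307 CPM in a single library, for counting error only. Mmp3 passed the filter without cKO replicate 3, through the cKO libraries alone, and its call there is not read as support. A pair of long non-coding genes and a pseudogene lie among these genes in the annotation, and how the counting treated strand is not stated in the labels. Reads of overlapping genes, or of Mmp1a and its close copy Mmp1b, may not have been kept apart.

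**Figure D3:**
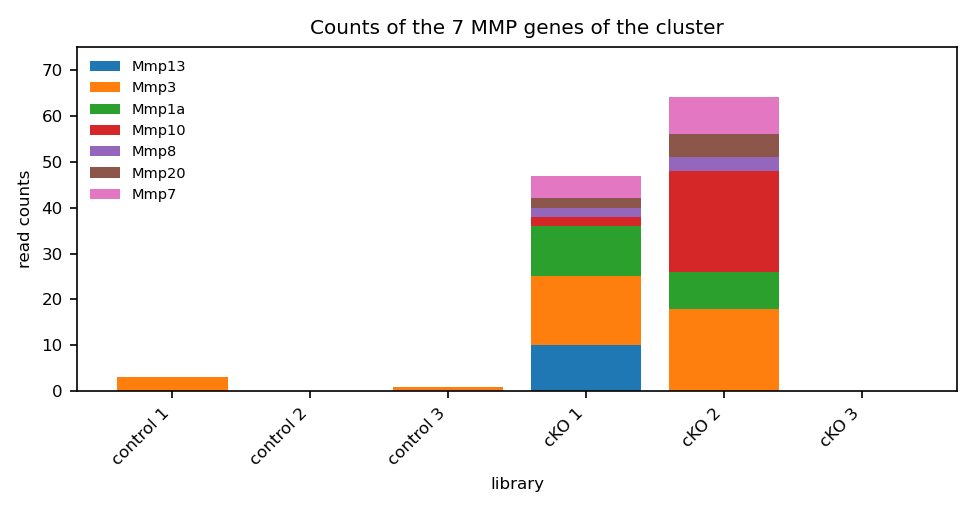
Read counts (y axis) of the 7 counted MMP genes of the chromosome 9 group, stacked by gene, in each library (x axis). The sums are 3, 0 and 1 in controls and 47, 64 and 0 in cKO replicates 1, 2 and 3.

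The start regions of most of these genes share sequence features that differ from those of most other members. This comparison was also chosen after the counts were seen. AP-1, a dimer of JUN and FOS proteins, is known to act on collagenase and stromelysin promoters through the sites TGACTCA and TGAGTCA. The motif searched here, TGANTCA, is wider, since N stands for any base. That motif reads the same on both strands and was searched in the 250 bases before each annotated start, together with the TATA motif TATAAA on either strand, with which it does not overlap. Of the 10 genes of the group, 8 held TGANTCA and 7 of these also held TATAAA before the same start. Mmp8, which was counted here, and Mmp27 held neither. Of all 32851 promoters in the table, 6.75% held TGANTCA and 1.21% held both motifs. These shares are per promoter, whereas a gene of the group was counted if any of its starts had the match. Among the 33 other members with an entry, 1 held TGANTCA, before one of the starts of Adam19. A match describes letters and not a bound site. The match of Mmp20 is TGAATCA, which is neither TGACTCA nor TGAGTCA. How many matches in the group, or among all promoters, are TGACTCA or TGAGTCA was not counted. CpG dinucleotides numbered 0 to 7 in the 300 bases around each start of the group, with a median of 1, against medians of 20 for the other members and 7 for all promoters.

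The last 100 bases before the start are shown for 6 of these genes because they carry both motifs, which are in capitals (TGANTCA first, then TATAAA). They are from RefSeq on GRCm38.p6, plus strand, 5′ to 3′, a build other than the GRCm39 of the submitters' processing notes. The windows are chr9:7445722-7445821 for Mmp3, chr9:7502242-7502341 for Mmp10, chr9:7464041-7464140 for Mmp1a, chr9:7272414-7272513 for Mmp13, chr9:7628131-7628230 for Mmp20 and chr9:7691990-7692089 for Mmp7. The first base of TGANTCA lies between -95 (Mmp20) and -35 (Mmp13), counted from the base before the start as -1. That of TATAAA lies between -58 (Mmp20) and -7 (Mmp3), so its place relative to the annotated start is not shared. How well the annotated starts mark the true ones was not tested.
Mmp3: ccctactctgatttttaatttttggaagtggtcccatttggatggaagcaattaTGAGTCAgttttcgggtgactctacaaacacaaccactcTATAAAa
Mmp10: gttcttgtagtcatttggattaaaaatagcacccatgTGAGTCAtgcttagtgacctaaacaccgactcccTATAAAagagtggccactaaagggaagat
Mmp1a: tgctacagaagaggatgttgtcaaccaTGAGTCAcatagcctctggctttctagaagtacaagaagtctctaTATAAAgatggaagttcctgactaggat
Mmp13: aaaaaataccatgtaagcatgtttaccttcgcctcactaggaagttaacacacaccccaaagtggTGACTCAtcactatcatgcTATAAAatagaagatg
Mmp20: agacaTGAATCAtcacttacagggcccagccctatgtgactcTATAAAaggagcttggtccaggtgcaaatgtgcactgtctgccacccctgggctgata
Mmp7: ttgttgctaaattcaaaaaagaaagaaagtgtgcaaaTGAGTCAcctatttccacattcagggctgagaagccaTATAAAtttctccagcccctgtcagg

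The matching windows of Mmp14, Timp3 and Timp1, whose groups did not overlap, hold neither motif and are shown for contrast. They lie at chr14:54431498-54431597, chr10:86300312-86300411 and chrX:20870066-20870165 on the plus strand of the same build. Capitals mark GC boxes (GGGCGG or its reverse complement), which 32.7% of all promoters held. Mmp14 has a pair of adjoining GC boxes and the other 2 have 1 each.
Mmp14: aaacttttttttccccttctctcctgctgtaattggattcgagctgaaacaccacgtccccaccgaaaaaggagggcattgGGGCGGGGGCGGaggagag
Timp3: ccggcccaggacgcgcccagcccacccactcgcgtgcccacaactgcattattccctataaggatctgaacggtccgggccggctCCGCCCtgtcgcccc
Timp1: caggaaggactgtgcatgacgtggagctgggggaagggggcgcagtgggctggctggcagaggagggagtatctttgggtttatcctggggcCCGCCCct

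Of the ADAM genes with a catalytic zinc motif, 5 of the 6 tested had a positive change, beside 6219 of all 13047 genes tested. The median log2 fold change of the 6 was 0.40, beside -0.04 for all genes. The positive changes of Adam9 (0.05, SE 1.32) and Adam10 (0.11, SE 0.174) were smaller than their SE. None of the 6 was called with 6 libraries, and 3 rose without cKO replicate 3, beside 13.7% of all genes. Adam17 encodes the sheddase that releases TNF and EGF receptor ligands. It had 126, 147 and 153 CPM in controls and 188, 195 and 302 CPM in cKO, with no overlap and with cKO replicate 3 far above the rest. Its change of 0.68 (SE 0.203) had an adjusted p of 0.1 with 6 libraries, and it rose without cKO replicate 3 by 0.42 (SE 0.114, adjusted p = 0.0134). Adam15, an ADAM with an integrin-binding motif, had 28.3, 27.8 and 25 CPM in controls and 45.5, 54.4 and 34.6 CPM in cKO. Its groups did not overlap either, and its adjusted p was 0.115 with 6 libraries and 0.00244 without cKO replicate 3 (0.88, SE 0.178).

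Adam9 showed how far a single library can carry a value. It had 534, 611 and 509 counts in controls, 874 and 758 in the first pair of cKO libraries, and 0 in cKO replicate 3. Its change was 0.05 (SE 1.32) with 6 libraries, and it rose without that library (0.63, SE 0.147, adjusted p = 0.00602). Adam10, which cleaves Notch receptors, had 58.5, 76.9 and 72.2 CPM in controls, against 71.2, 66.3 and 86.7 CPM in cKO, and the groups overlapped (adjusted p = 0.77, and 0.943 without cKO replicate 3). Adam8 had 151 counts in cKO replicate 3 against 1 to 31 in all other libraries, and was not called in either fit.

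The ADAMs without a catalytic zinc motif, which act as adhesion proteins, moved apart. Adam11 had 22.8, 17.3 and 14.7 CPM in controls and 29.7, 32.1 and 19.7 CPM in cKO. The value of cKO replicate 3 lay inside the control range, and Adam11 rose without it (0.75, SE 0.233, adjusted p = 0.0276; 0.342 with it). Adam22 had 11, 8.28 and 6.16 CPM in controls and 2.55, 3.76 and 0 CPM in cKO. All its cKO values were below all controls, and it fell without cKO replicate 3 (-1.43, SE 0.439, adjusted p = 0.0259; 0.438 with it). Adam23 was not tested, with at most 9 counts in any library.

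Of the ADAMTS genes known to cleave proteoglycans, 5 of the 6 tested had a positive change, beside 6219 of all 13047 genes tested. The median log2 fold change of the 6 was 1.51, beside -0.04 for all genes. Adamts4 among them passed the filter only through the cKO libraries in both fits, so its positive sign is no support. The median of 1.51 includes it and is given as a description. None of the 6 was called with 6 libraries, and 2 rose without cKO replicate 3, beside 13.7% of all genes. Adamts1, a protease of versican and aggrecan, had the largest difference in mean CPM of these. Controls had 66.1, 197 and 178 CPM and cKO libraries 514, 372 and 175 CPM. Control replicate 1 was low, and cKO replicate 3 lay inside the control range. The change was 1.27 (SE 0.507, adjusted p = 0.197), and 1.58 (SE 0.581, adjusted p = 0.153) without cKO replicate 3, so Adamts1 was called in neither fit. DESeq2 called it a rise with 6 libraries.

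Adamts5, the main aggrecanase of mouse cartilage, had 26, 41 and 26 counts in controls, against 197, 97 and 30 in cKO. The cKO replicate 3 value again lay among the controls (adjusted p = 0.226), and Adamts5 rose without it (2.31, SE 0.407, adjusted p = 0.000926). Adamts9 behaved likewise in the first 2 cKO libraries. It had 5.99, 4.76 and 4.6 CPM in controls and 13, 8.53 and 0.798 CPM in cKO, and rose without cKO replicate 3 (1.06, SE 0.366, adjusted p = 0.0442; 0.797 with it). Adamts15 was at 0.295, 5.71 and 3.03 CPM in controls and 12, 6.6 and 12.1 CPM in cKO, with no overlap, and was not called in either fit (adjusted p = 0.358 and 0.16). Adamts4 was under 1 CPM in each control and at 1.42 to 4.49 CPM in cKO, and was not called in either fit. Adamts20 had 0 counts in cKO replicate 3, otherwise overlapped the controls and was called in neither fit.

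The pair Adamts16 and Adamts18, close relatives in sequence, lay on opposite sides of 0. Adamts16 had 67.3, 72.8 and 73.2 CPM in controls and 53, 54.9 and 20.5 CPM in cKO, every cKO library being lower. It fell without cKO replicate 3 (-0.41, SE 0.143, adjusted p = 0.0471), and its adjusted p was 0.293 with 6 libraries. Adamts18 had 22.9, 26.6 and 37.9 CPM in controls, 62.1 CPM in each of cKO replicates 1 and 2, and 25.7 CPM in cKO replicate 3. It rose without cKO replicate 3 (1.08, SE 0.206, adjusted p = 0.00157), and its adjusted p was 0.296 with 6 libraries.

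Adamts10, which binds fibrillin microfibrils, was higher by a small margin in all cKO libraries. It had 40.4, 45.2 and 46.4 CPM in controls and 65, 63.4 and 51.8 CPM in cKO, and rose without cKO replicate 3 (0.53, SE 0.153, adjusted p = 0.0187; 0.171 with it). Adamts7 and Adamts17 had 24.1 and 20.9 CPM in cKO replicate 3, each over 3 times the value of cKO replicate 1 or 2, and their other cKO libraries overlapped the controls. Neither was called in either fit. The procollagen N-propeptidase genes Adamts2, Adamts3 and Adamts14 had at most 13 counts in any library and were not tested with 6 libraries.

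ADAMTS-like genes were low and none was called in either fit. Adamtsl1 had 3.73, 4 and 4.89 CPM in controls and 8.17, 9.65 and 25 CPM in cKO, with no overlap (adjusted p = 0.141, and 0.0533 without cKO replicate 3). For Adamtsl4, 271 counts in cKO replicate 3 stood against 0 to 21 in the other 5 libraries. Its change was 3.08 (SE 1.94) with that library and -1.10 (SE 1.24) without it, so its direction rests on 1 library. Adamtsl5 had 85 counts in cKO replicate 3 and 6 to 18 elsewhere.

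Of the inhibitors, Timp1 and Timp3 were higher in every cKO library than in any control, and Timp2 was not. Timp3, a matrix-bound inhibitor with a broad range of targets, had 51.4, 85.5 and 77.9 CPM in controls and 402, 247 and 113 CPM in cKO. The lowest cKO value was that of cKO replicate 3. The change of 1.83 (SE 0.453) had an adjusted p of 0.0626 with 6 libraries, and Timp3 rose without cKO replicate 3 (2.17, SE 0.286, adjusted p = 0.00298). DESeq2 (adjusted p = 0.000316) and the limma-voom weights (0.00416) called the rise with 6 libraries.

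Timp1, an inducible secreted inhibitor, had 5, 15 and 2 counts in controls, against 81, 49 and 89 in cKO. Here cKO replicate 3 was in step with the other cKO libraries. The mean was 0.705 ± 0.643 CPM in controls, against 7.38 ± 2.1 CPM among cKO libraries (SD, n = 3), and the change of 3.36 (SE 0.972) had an adjusted p of 0.0931. Timp1 rose without cKO replicate 3 (3.20, SE 0.746, adjusted p = 0.00599), with limma on log2(FPKM + 1) (adjusted p = 0.0098) and with DESeq2 (0.00377). It passed the filter only through the cKO libraries, since the control mean was under 0.965 CPM, and so these calls are given as a description. The gene lies on the X chromosome, and the libraries differed in Y-linked reads. Ddx3y had 953, 1044 and 392 counts in controls, against 0 in each cKO library, and Eif2s3y had 736, 815 and 439 counts in controls, 504 in cKO replicate 3 and 0 in the other cKO libraries. Uty and Kdm5d had 95 to 446 counts in controls and 0 in each cKO library. In the fit without cKO replicate 3, these Y-linked genes thus had reads in every control and in no cKO library. The part of these differences in the values of Timp1 or any other member was not tested. In this design it cannot be told apart from that of genotype.

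Timp2, the most abundant inhibitor in controls, had 222, 226 and 290 CPM in controls and 220, 239 and 186 CPM in cKO. The groups overlapped and the change was -0.19 (SE 0.15, adjusted p = 0.517), and -0.11 (adjusted p = 0.564) without cKO replicate 3. Timp4 had at most 14 counts in any library and was not called where it could be tested.

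Set side by side per gene length, the inhibitor and protease RNAs changed places in cKO replicates 1 and 2. The 19 Mmp genes summed to 129, 137 and 145 FPKM in controls and 72, 82.5 and 110 FPKM in cKO. The 4 Timp genes summed to 71.6, 82.3 and 94.8 FPKM in controls and 155, 127 and 87.3 FPKM in cKO, the last value being inside the control range. The Timp sum was thus 0.556 to 0.655 times the Mmp sum in controls, and 2.15, 1.54 and 0.793 times in cKO replicates 1, 2 and 3. All 3 cKO ratios were above all control ratios. Mmp14 supplied 65.5 to 71.2% of the Mmp sum in controls and 25.7 to 43.1% in cKO. Timp3 supplied 15.1 to 22.1% of the Timp sum in controls and 28.3 to 55% in cKO. These sums were formed after the single genes were seen and carry no test, and RNA levels do not give the amount of active protein.

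**Figure D4:**
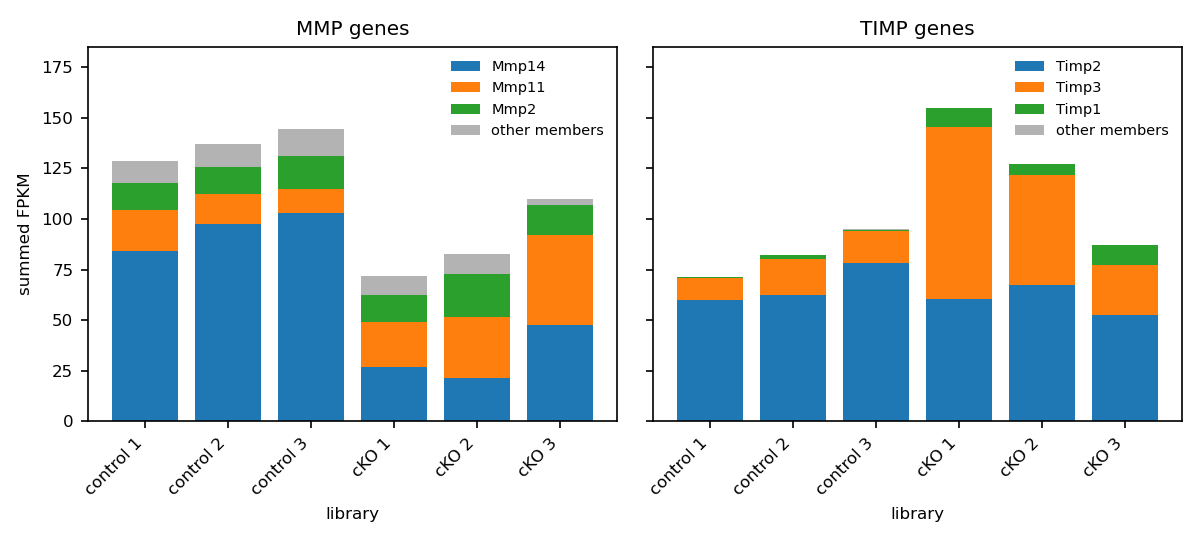
Summed FPKM (y axis) of the 19 Mmp genes (left) and the 4 Timp genes (right) in each library (x axis), stacked by gene. The Mmp14 share of the Mmp bar is 65.5 to 71.2% in controls and 25.7 to 43.1% in cKO, and the Timp3 share of the Timp bar is largest in cKO replicate 1, at 55%.

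Genes that activate, traffic, inhibit or are cut by these proteases were taken from a list of 64, of which 61 were in the table and 45 were tested. With 6 libraries 5 rose and 1 fell (13.3%, against 7.11% of all genes), and without cKO replicate 3, 16 rose and 3 fell among 50 (38%, against 28.5%). Among the called genes 1 with 6 libraries (Epgn) and 3 without cKO replicate 3 (Epgn, Ncan and Thbs2) passed the filter only through the cKO libraries. Both called genes of plasminogen activation rose. Plat, tissue plasminogen activator, had 1.96, 1.24 and 3.23 CPM in controls and 99.4, 59 and 25.1 CPM in cKO (log2 fold change 4.83, SE 0.644, adjusted p = 0.0111, and 7.51e-07 without cKO replicate 3). Serpine2, a serpin that inhibits plasminogen activators and thrombin, had 176, 136 and 161 CPM in controls and 417, 591 and 666 CPM in cKO (1.83, SE 0.196, adjusted p = 0.00644, and 9.12e-06 without cKO replicate 3). Neither overlapped between groups. Serpine2 kept its call without each library in turn (highest adjusted p 0.0496, without control replicate 3). Plat lost its call without control replicate 1, 2 or 3 (0.0707, 0.0595 and 0.0559). Urokinase, Plau, was at most 8.68 CPM and was not called in either fit.

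The other called genes of the list came from 4 roles. Pcsk7, a proprotein convertase, rose from 47.3 ± 5.04 to 101 ± 16.4 CPM (SD, n = 3, adjusted p = 0.0165), whereas Furin was 20.3 to 29.3 CPM in controls and 11.1 to 19.5 CPM in cKO and was not called in either fit. Tspan15, a tetraspanin that escorts ADAM10 to the membrane, had 462, 492 and 490 CPM in controls, against 326, 348 and 246 CPM in cKO, and fell (-0.65, SE 0.14, adjusted p = 0.0428). Thbs1, the matricellular protein thrombospondin, which ADAMTS1 can cut, rose from 46 ± 12.2 to 192 ± 83.6 CPM (2.06, SE 0.383, adjusted p = 0.0283). Epgn, a ligand of the EGF receptor, had 0, 0 and 3 counts in controls, against 57, 93 and 148 in cKO. Its adjusted p was 0.0431, and it was tested only through the cKO libraries. Tspan15, Thbs1 and Epgn kept their calls in 1 of 6 tests without a library, the one without cKO replicate 3. Pcsk7 kept its call there and without cKO replicate 1 (0.0498). Without the other libraries the adjusted p was 0.0616 to 0.0948 for Pcsk7, 0.0761 to 0.163 for Tspan15, 0.0751 to 0.124 for Thbs1 and 0.0839 to 0.166 for Epgn.

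A further 13 partners were called without cKO replicate 3 and not with 6 libraries, of which 11 rose and 2 fell. The risen were Plgrkt, Pcsk5, Tspan17, Reck, Bmp1, Mep1a, Mep1b, Btc, Ncan, Thbs2 and Fbn2, and the fallen were Tspan14 and Mme. Values are given for 3 of them, chosen after their values were seen. Reck, a membrane-bound MMP inhibitor, had 9.52, 8.66 and 2.93 CPM in controls and 15.6, 17.4 and 17.5 CPM in cKO, and rose without cKO replicate 3 (1.22, SE 0.406, adjusted p = 0.0386; 0.22 with it). Bmp1, the procollagen C-proteinase, had an adjusted p of 0.0553 with 6 libraries (0.70, SE 0.166) and rose without cKO replicate 3 (adjusted p = 0.00516). Mme, the cell surface peptidase neprilysin, had 87.1, 72.7 and 70.5 CPM in controls and 23, 40.7 and 46.5 CPM in cKO, and fell without cKO replicate 3 (-1.28, SE 0.221, adjusted p = 0.000902; 0.0722 with it). The fibrillar collagen genes Col1a1, Col1a2 and Col3a1, whose products are substrates of collagenases, were sparse, each at 9.95 CPM or less. Col4a1, of the basement membrane, was 108 to 245 CPM over all libraries and was not called in either fit.

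The 30 members that did not pass the filter with 6 libraries had at most 82 counts in total. Of these, 13 had no count in any control, and 4 (Adam4, Adam28, Adamts8 and Adamts19) had none in any cKO library, with at most 18 counts in total in the other group. Adam19 had 76 counts in cKO replicate 3 and 0 to 3 in the others. Adamts13, which cuts von Willebrand factor, had 0 counts in controls, against 7, 10 and 0 in cKO replicates 1, 2 and 3.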

How the data were processed

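Counts per gene from RNA sequencing of 3 control and 3 cKO libraries were analysed. The authors deposited raw read counts and FPKM values, 1 column for each library. The tools HISAT2, HTSeq, Cufflinks and DESeq and the build GRCm39 appear, with neither version nor role, per the submitters' processing notes, and libraries were stranded per the labels' protocols. Genes were filtered with filterByExpr, scaled with TMM factors and tested with the robust quasi-likelihood F-test of edgeR 4.0.16 (R 4.3.3), with the genotype as the only term and Benjamini-Hochberg adjustment over all genes tested. For each gene, SE is the absolute log2 fold change over the root of F. Levels in CPM use the TMM factors, and FPKM serves to compare genes. Alternatives used DESeq2 1.42.0, limma 3.58.1, other filters, a replicate block and each library left out. The steps were tested on simulated counts with 200 changed genes. Members and lists were chosen with earlier results of these data known. Named by rule were a list of members whatever their values, members called with 6 libraries or without cKO replicate 3, the 3 highest of each class in controls, and partner genes called with 6 libraries. Other genes were named after their values were seen. Promoters are from RefSeq, matched by symbol for 40 of 65 members.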

Additional observations from a re-analysis of the deposited data

How the results depend on the processing

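With edgeR and 6 libraries 459 of all genes rose and 469 fell. These counts were 1029 and 1020 with DESeq2, 696 and 709 with limma on log2(FPKM + 1), 1607 and 1756 with limma-voom library weights, and 12 and 11 with the replicate number as a block. Leaving out 1 library gave 62 to 1865 rises and 59 to 2032 falls. Members that rose numbered 0, but 6 with DESeq2, 1 on log2(FPKM + 1) and on log2(FPKM + 0.1), 9 with library weights and 0 to 12 without 1 library. Members that fell numbered 1, but 3 with library weights, 0 with the replicate block (Mmp14 adjusted p = 0.0628) and 0 to 6 without 1 library. Partner genes that rose numbered 5, but 10 with DESeq2, 12 with library weights, 0 with the block and 1 to 16 without 1 library. Those that fell numbered 1, but 2 with DESeq2, 0 on log2(FPKM + 0.1), 3 with weights, 0 with the block and 0 to 3 without 1 library. The cause was not tested. Deviations of same-numbered libraries from their group means correlated at -0.022, 0.025 and -0.00145 across genes, beside -0.0327 to 0.0321 for other pairs. With 3 libraries in each group and cKO replicate 3 apart from the rest, these values do not settle whether replicate numbers pair libraries.

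Direction turned for 5 of the members followed, none of them called with 6 libraries. Without 1 library, Adam9 ran from -0.48 to 0.63, Adamtsl4 from -1.10 to 3.84, Adam10 from -0.02 to 0.19, Adamts9 from -0.14 to 1.06 and Mmp2 from -0.10 to 0.23. Adam9 was also at -0.84 on log2(FPKM + 1), -1.89 on log2(FPKM + 0.1) and -0.90 with the block. Adamtsl4 was at -1.78 with weights and -0.22 with the block, Adam10 at -0.02 with weights and Adamts9 at -0.04 with the block. The edgeR test with DESeq2 size factors and no filter turned no direction and moved no call among the 31 genes followed. In simulated counts of 6 libraries, edgeR called 18.4% of the 2-fold and 45.2% of the 4-fold changes over 12386 genes. Without cKO replicate 3 it called 66.3% and 85.4% over 12826 genes, and 8.55% of its calls fell on unchanged genes. Each gene was drawn from its control mean with 1 dispersion for all libraries, and only 200 genes were changed. No simulated library thus stood apart as cKO replicate 3 does, so these rates need not hold for the real libraries.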
